A study of Mus musculus with 4 samples.

Results

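The CD8aa T cells of this study are the nuclei that its authors labelled CD8aa among T cells sorted from the mouse cecum and from colorectal tumors growing in it. The members were taken by that label alone, in both tissues. They number 407 (cecum) and 473 (tumor), 880 of 15621 labelled nuclei in all, and they made up 5.69% and 5.59% of the labelled nuclei of their library. The tumors were grown from transplanted organoids, called AKP, that lack Apc and Trp53, and both tissues were taken 4 weeks after the transplantation, the cecum sample being the tumor-free tissue next to the tumor. Nuclei of the sorted T cells went into a combined assay of chromatin accessibility (ATAC-seq, in which a transposase cuts open DNA) and nuclear RNA, and the accessibility fragments of each nucleus are what is described here. The strain, age, sex and number of mice behind each library were not given in the sources used here, and no untreated mouse was among the samples. Each tissue is 1 library, so no test was possible: values are given in each library with exact 95% intervals that cover counting error only, and tissue and library cannot be told apart. Where the order is not stated, the cecum value comes first and the tumor value second.

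CD8 is a coreceptor that helps the T cell receptor to read antigen on MHC class I. Conventional cytotoxic T cells carry it as a dimer of an alpha and a beta chain, encoded by Cd8a and Cd8b1, whereas many lymphocytes of the gut epithelium carry alpha chain dimers, known as CD8aa, that serve less well as a coreceptor and bind a nonclassical MHC molecule of the epithelium. Cells with CD8aa include a natural lineage of alpha-beta T cells that is selected in the thymus on strong self recognition and turns off CD4 and CD8b, as well as gamma-delta T cells. The natural lineage is known for natural killer receptors, for the adaptor chain encoded by Fcer1g, for the transcription factor T-bet encoded by Tbx21, and for dependence on IL-15.

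The stretches below are the 250 bases before the start that a RefSeq promoter table gives for the 3 genes that mark the label and for Olfr1258, which led the genes over the fragment minimum in the ratio to Cytotoxic CD8 cells, and they show where on the genome the signal described next was or was not found. For the last of these that start lies inside the annotated gene span, while the other 3 stretches end where the span begins. They come from RefSeq on GRCm38.p6 (mm10), each written 5′ to 3′ on the gene's own strand. They lie at chr6:71373177-71373426 on the plus strand for Cd8a, at chr11:97115332-97115581 on the minus strand for Tbx21, at chr1:171234350-171234599 on the minus strand for Fcer1g and at chr2:89929561-89929810 on the plus strand for Olfr1258. Capitals would mark a match to TGTGGT, the core bound by Runx factors, or to GGTGTGA, the core bound by T-box factors, searched on both strands. None of the 4 stretches holds either, against 14.05% and 3.33% of 32851 promoters of that length.
Cd8a: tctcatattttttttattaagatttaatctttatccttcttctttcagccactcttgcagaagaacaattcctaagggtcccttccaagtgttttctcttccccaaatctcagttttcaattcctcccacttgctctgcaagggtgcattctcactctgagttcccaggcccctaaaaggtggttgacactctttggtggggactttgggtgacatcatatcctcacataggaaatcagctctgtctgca
Tbx21: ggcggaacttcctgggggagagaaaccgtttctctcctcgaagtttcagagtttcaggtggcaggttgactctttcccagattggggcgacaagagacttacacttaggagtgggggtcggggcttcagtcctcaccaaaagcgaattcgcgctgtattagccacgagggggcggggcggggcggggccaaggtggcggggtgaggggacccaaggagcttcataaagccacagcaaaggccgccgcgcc
Fcer1g: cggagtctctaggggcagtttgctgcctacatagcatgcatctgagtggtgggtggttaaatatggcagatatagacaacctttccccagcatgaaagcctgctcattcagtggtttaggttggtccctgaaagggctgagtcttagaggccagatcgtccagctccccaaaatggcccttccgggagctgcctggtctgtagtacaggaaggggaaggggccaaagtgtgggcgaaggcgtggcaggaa
Olfr1258: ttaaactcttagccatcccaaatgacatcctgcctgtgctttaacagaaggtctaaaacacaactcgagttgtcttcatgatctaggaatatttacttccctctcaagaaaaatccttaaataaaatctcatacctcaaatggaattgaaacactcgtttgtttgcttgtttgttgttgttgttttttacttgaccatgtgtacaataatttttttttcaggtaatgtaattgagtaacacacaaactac

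At the printed Fcer1g stretch, CD8aa cells had 9 and 12 fragments, which is 4.18 and 3.47 fragments per 1000000 fragments of the label (FPM). Cytotoxic CD8 cells had 1 fragment there in each library (0.295 and 0.266 FPM), and Cytotoxic gdT cells, the gamma-delta cells with a cytotoxic program, stood between at 2.33 and 1.43 FPM. The Cd8a stretch was cut at similar levels in all 3, at 7.89 and 7.51 FPM in CD8aa, 5.90 and 5.33 in Cytotoxic CD8 and 8.64 and 8.11 in Cytotoxic gdT cells. At the Tbx21 stretch CD8aa cells had 10.2 and 8.67 FPM. The Olfr1258 stretch had 0 and 2 fragments in CD8aa cells, so the signal counted for that gene lies outside it. Where it lies is given below with the gene.

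The CD8aa label held 2154740 and 3460147 fragments, a median of 3821 and 5988 per nucleus. Among labelled nuclei 84 barcodes occurred in both libraries, of which 2 bore the CD8aa label in the cecum library, 4 in the tumor library and 0 in both. The share of fragments near gene ends, a measure of signal over background, was 45.5% and 43.8%, the highest of 16 labels in the cecum and rank 6 of 17 in the tumor (range 41.2% to 45.5% and 38.8% to 45.9%), and scaling by these fragments in place of all fragments moved none of the counts of calls by over 1.5 times. Cytotoxic CD8 cells gave 3388341 and 3754731 fragments and Cytotoxic gdT cells 3008350 and 4192345, so that CD8aa values of the cecum rest on the fewest fragments of the 3 labels, and CD8aa was 14th of 16 labels in depth there and 8th of 17 in the tumor. Accessibility at markers of other cells lay within the range of the other labels except in 1 case. The summed levels in CD8aa were 163 and 153 FPM for 6 B cell genes (range over labels 137 to 226 and 141 to 207), 197 and 208 for 6 myeloid genes (140 to 209 and 154 to 208, Lyz2 at 0 in the cecum) and 189 and 199 for 10 epithelial genes (93.8 to 213 and 107 to 214). The case was the myeloid sum in the tumor, the highest of the 17 labels. Of its genes Cd68 had 131 FPM there (81.1 to 125 in the other labels), Spi1 54.9 (rank 4) and Cd14 15.9 (rank 7). Lyz2 had 0.289 (rank 15), Csf1r 3.18 (rank 15) and Adgre1 2.89 (rank 13). The part of this sum in the results was not tested.

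Over a gene, accessibility was counted as fragments with a cut inside its span or within 5 kb of it. Of the 3 markers, Fcer1g encodes the signalling chain shared by Fc receptors and natural killer receptors. Its level in CD8aa was the highest of all labels in both libraries. CD8aa cells reached 38.1 and 41.6 FPM, Innate-like T#1 cells came next at 34.7 and 37.1, Cytotoxic gdT cells had 25.6 and 26, and Cytotoxic CD8 cells 10.0 and 12.3. Tbx21 was at 154 and 149 FPM, the second and the third highest level of the labels, and did not differ from Cytotoxic CD8 cells beyond counting error (157 and 156 FPM, log2 ratio -0.03 with an interval from -0.23 to 0.17 and -0.07, from -0.24 to 0.11). Cd8a, at 53.4 and 59.8 FPM, ranked 5th in both libraries and was below Cytotoxic CD8 cells (95.3 and 86.6 FPM). By the share of nuclei with a fragment at Cd8a, given below, CD8aa did not stand above Cytotoxic gdT cells either. The label thus carried open chromatin at all 3 of its markers, and of the 3 only Fcer1g was highest in it. Its margin over Innate-like T#1 cells was small, and whether it passes counting error was not tested. Since the labels were made from RNA of the same nuclei, this is a check of the label and not independent evidence.

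**Figure D1:**
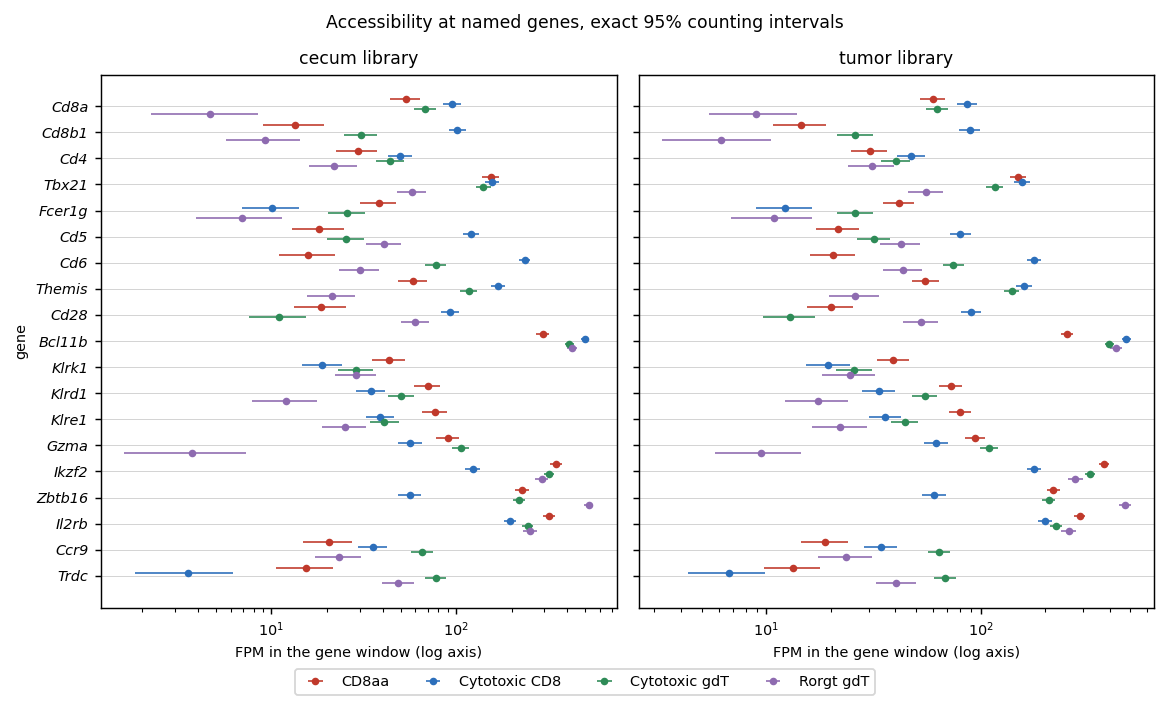
Accessibility in FPM (fragments per 1000000 fragments of the label, log axis) over 19 genes in CD8aa, Cytotoxic CD8, Cytotoxic gdT and Rorgt gdT cells, with a panel for each library, a point for each label and a bar for its exact 95% counting interval. CD8aa lies far below Cytotoxic CD8 at Cd8b1 (13.5 and 14.5 against 102 and 89.0 FPM) and above it at Fcer1g (38.1 and 41.6 against 10.0 and 12.3).

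What set the CD8aa nuclei apart from Cytotoxic CD8 cells at the coreceptor genes was Cd8b1, the gene for the CD8 beta chain, more than Cd8a. CD8aa cells had 13.5 and 14.5 FPM over Cd8b1 (chr6:71322788-71337492), against 102 and 89.0 in Cytotoxic CD8 cells. The log2 ratio was -2.92 (interval -3.52 to -2.37) and -2.62 (-3.08 to -2.19), while at Cd8a (chr6:71373427-71379171) it was -0.84 (-1.16 to -0.53) and -0.53 (-0.79 to -0.28). Cytotoxic gdT cells stood between at Cd8b1, with 30.6 and 26 FPM. Cd4 was also low in CD8aa cells, at 29.2 and 30.3 FPM, rank 15 of 16 labels in the cecum and last of 17 in the tumor. Cytotoxic CD8 cells had 49.9 and 47.4 FPM there. In both libraries, then, CD8aa cells were nearly at the bottom for Cd4, in the middle of the labels for Cd8b1 (rank 9 of 16 and 11 of 17) and 5th for Cd8a.

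The 500-bp tiles of the Cd8 locus resolved this contrast into single elements. The tile at the start of Cd8b1 (chr6:71322501-71323000) was almost closed in CD8aa cells, at 0.46 and 1.45 FPM, against 18 and 14.9 in Cytotoxic CD8 cells, a log2 ratio of -5.28 (-10.60 to -2.75) and -3.37 (-5.05 to -2.06). A tile between the genes, chr6:71357501-71358000, was as open in CD8aa as in Cytotoxic CD8 cells, at 18.1 and 15.3 against 15.6 and 12.8 FPM (0.21, from -0.42 to 0.83, and 0.26, from -0.33 to 0.86), and ranked 1st and 3rd of all labels. Another tall tile, chr6:71369501-71370000 before the start of Cd8a, had 14.4 and 15.6 FPM in CD8aa against 27.2 and 22.9 (-0.92 and -0.55). The tile at the start of Cd8a, chr6:71373001-71373500, had 9.75 and 13.9 FPM in CD8aa and 8.56 and 7.46 in Cytotoxic CD8 cells. Past the end of Cd8a the contrast returned: chr6:71381501-71382000 had 3.71 and 6.07 FPM in CD8aa, 10.6 and 9.54 in Cytotoxic gdT and 18.3 and 25.6 in Cytotoxic CD8 cells. There the log2 ratio to Cytotoxic CD8 cells was -2.30 (-3.58 to -1.23) and -2.07 (-2.83 to -1.38). The tiles at the start of Cd8a and at 1 intergenic site were thus open in CD8aa at or above the level of Cytotoxic CD8 cells, and those at the start of Cd8b1 and past Cd8a were well below it.

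**Figure D2:**
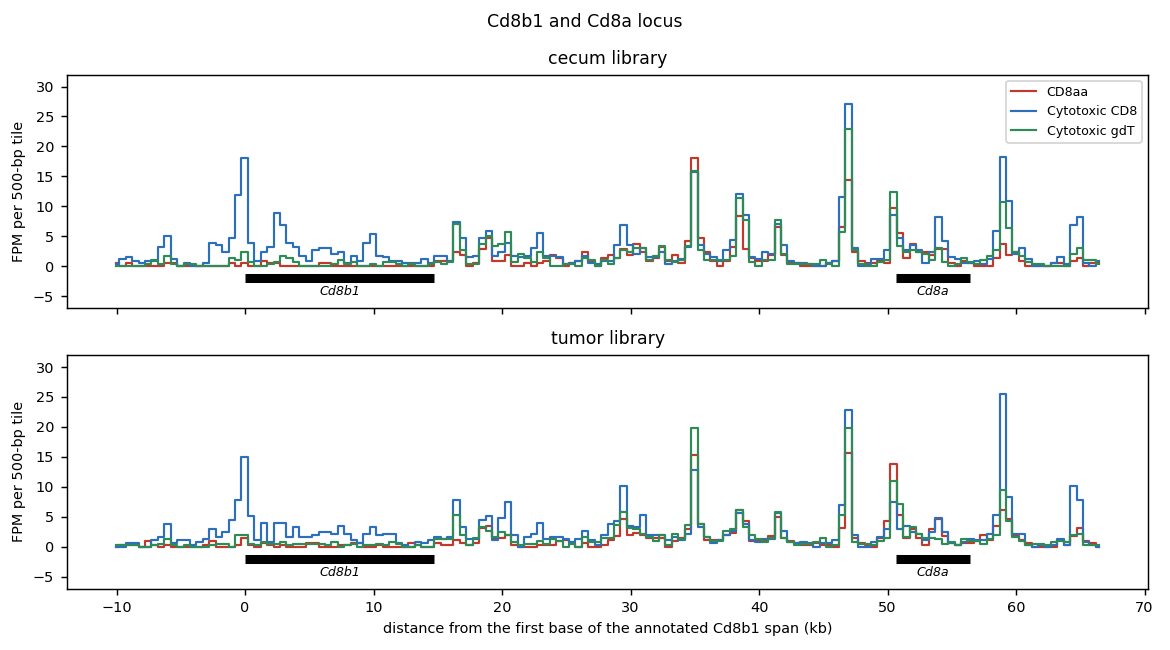
Accessibility in FPM per 500-bp tile (linear axis) by distance in kb from the first base of the annotated Cd8b1 span, with a panel for each library, a line for each of CD8aa, Cytotoxic CD8 and Cytotoxic gdT cells and bars for the 2 gene spans. The peak at the start of Cd8b1, 18 and 14.9 FPM in Cytotoxic CD8 cells, is at 0.46 and 1.45 FPM in CD8aa.

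Gene accessibility as a whole placed CD8aa nearest to Cytotoxic gdT cells. Over 17353 genes, with each label thinned to the same number of fragments, Pearson r of log2 (FPM + 1) with Cytotoxic gdT cells was 0.920 and 0.921. Cytotoxic CD8 cells followed at 0.910 and 0.914 and Innate-like T#1 cells at 0.900 and 0.904. The Rorgt gdT cells, gamma-delta cells of the IL-17 type, were only 12th and 15th in that order, and CCR7+ CD4 cells came last at 0.862 and 0.872. These correlations are across genes of a library, which are not independent, and they carry no test. The numbers of genes that differed had the same order for these 3 labels. A gene was called where the ratio passed 1.5-fold the same way in both libraries. Against Cytotoxic CD8 cells 241 of 13631 genes were higher in CD8aa (1.77%) and 285 lower (2.09%). Against Cytotoxic gdT cells the numbers were 66 (0.492%) and 92 (0.686%) of 13416, and against Rorgt gdT cells 713 (5.41%) and 746 (5.66%) of 13170. The numbers against Cytotoxic gdT cells moved with the settings, being 118 and 144 as a mean over cells, 13 and 22 at a minimum of 200 fragments and 153 and 393 with no minimum. At the minimum of 200 they were 110 and 92 against Cytotoxic CD8 and 333 and 260 against Rorgt gdT cells. Few genes passed 1.5-fold in opposite directions in the libraries, namely 6, 7 and 8, and r between the ratios of the 2 libraries was 0.658, 0.409 and 0.846. The median ratio of all genes was 0.02 and 0.01 against Cytotoxic CD8, 0.02 and 0.02 against Cytotoxic gdT and 0.10 and 0.11 against Rorgt gdT cells, so that values of the last comparison are to be read against that shift.

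**Figure D3:**
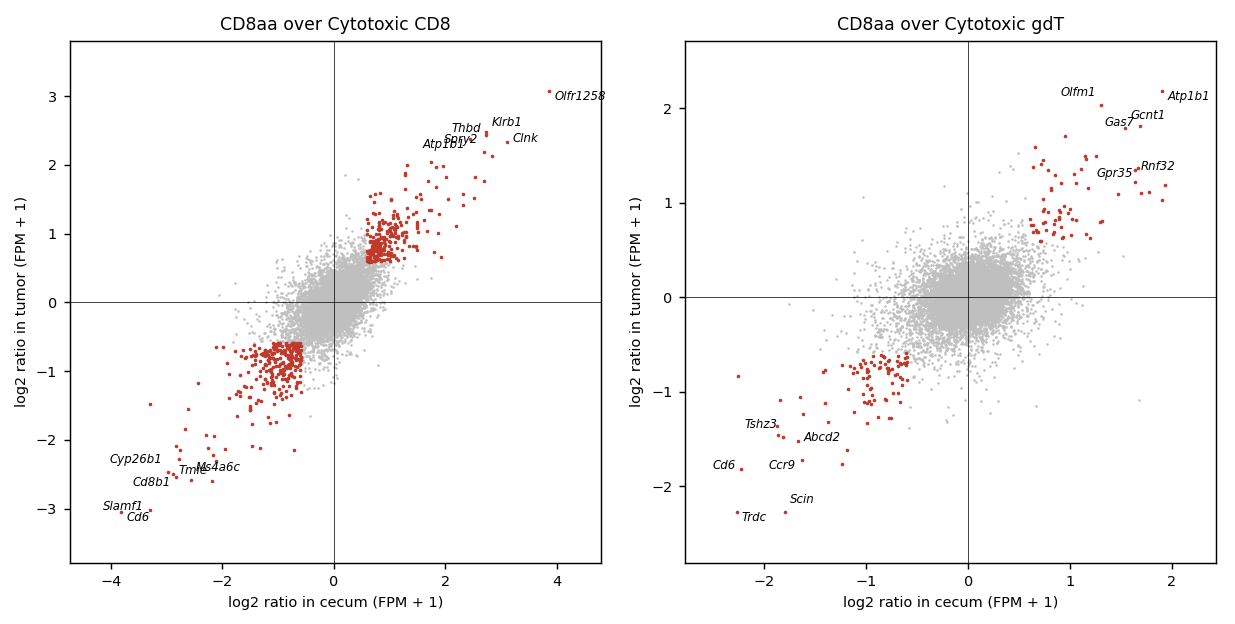
Log2 ratio of FPM + 1 in CD8aa over Cytotoxic CD8 cells (left) and over Cytotoxic gdT cells (right), a point for each gene tested, with the cecum on the horizontal and the tumor on the vertical axis, called genes in red and the 6 highest and 6 lowest named. On this scale Cd6 lies at -3.82 and -3.05 at the lower left of the first panel and Atp1b1 at 1.90 and 2.18 at the upper right of the second.

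Several genes of the T cell receptor signalling chain were less open in CD8aa cells. Of 11 genes tested, 4 were lower than in Cytotoxic CD8 cells and 0 higher (all genes 1.77% higher and 2.09% lower), with a median log2 ratio of -0.32 and -0.27. Cd6 (chr19:10789339-10830062), a surface regulator of receptor signalling, had 15.8 and 20.5 FPM, against 236 and 177 in Cytotoxic CD8 cells (log2 ratio -3.90, from -4.44 to -3.40, and -3.11, from -3.49 to -2.76). Its neighbour Cd5 (chr19:10718107-10739026), which dampens receptor signals, had 18.1 and 21.7 against 121 and 80.4 (-2.74, from -3.25 to -2.27, and -1.89, from -2.28 to -1.52). Of the Cd6 difference the tile chr19:10816001-10816500 inside the gene held a part, with 1.86 and 2.31 FPM against 29.5 and 20.8. Themis, needed for thymocyte selection, had 58.5 and 55.2 FPM against 169 and 160 (-1.53 in both), and Lat, the scaffold below the receptor, 29.2 and 29.8 against 47.8 and 57.5 (-0.71 and -0.95, but 0.013 in the cecum within 1 kb of the gene ends). Cd5, Cd6 and Lat were lower in CD8aa than in all other labels in both libraries. So was Cd247, the zeta chain of the receptor, at 149 and 150 FPM against 203 and 190 in Cytotoxic CD8 and 257 and 256 in Cytotoxic gdT cells, which passed the fold against the latter and not the former (-0.78 and -0.77, though 0.14 in the cecum within 1 kb of the gene ends). The CD3 chains did not follow: Cd3d had 142 and 127 FPM against 140 and 142 in Cytotoxic CD8 cells, Cd3e 71.9 and 84.7 against 80.3 and 90.3, and Cd3g 115 and 114 against 112 and 102. Against Cytotoxic gdT cells Themis (117 and 140 FPM there, -1.0 and -1.34), Cd6 (77.5 and 74.7 there, -2.30 and -1.86) and Cd247 were again lower, 3 of 11 (all genes 0.686%). Against Rorgt gdT cells Cd247, Lat, Cd5 and Cd6 were lower, 4 of 11 (all genes 5.66%), and Themis was higher (5.41%). Bcl11b, a keeper of T cell identity from the coreceptor list, was at 294 and 254 FPM against 497 and 479 in Cytotoxic CD8 cells (-0.76 and -0.91), and with Cd4 and Cd8b1 it made 3 of 10 genes of that list lower (all genes 2.09%).

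Of the adaptors and kinase that signal through or beside such chains, 1 of 4 tested was higher than in Cytotoxic CD8 cells and 0 lower (all genes 1.77% higher and 2.09% lower). The log2 ratio of Fcer1g (chr1:171229572-171234349) was 1.92 (1.33 to 2.54) and 1.76 (1.28 to 2.28) over Cytotoxic CD8 cells and 0.57 (0.11 to 1.04) and 0.68 (0.31 to 1.05) over Cytotoxic gdT cells, the latter too small for a call. Its strongest tile, chr1:171232001-171232500, had 15.8 and 18.8 FPM in CD8aa, 9.31 and 8.83 in Cytotoxic gdT and 4.13 and 3.46 in Cytotoxic CD8 cells, and was the highest of all labels in both libraries. Tyrobp, the related adaptor DAP12, was at 114 and 113 FPM against 93.9 and 98.0 in Cytotoxic CD8 cells. Sh2d1b1, which encodes the adaptor EAT-2 of the natural killer signalling family, was nearly closed in Cytotoxic CD8 cells: there 3 and 1 fragments were counted, against 35 and 69 in CD8aa. The levels were 0.885 and 0.266 FPM against 16.2 and 19.9, a log2 ratio of 4.2 (2.53 to 6.54) and 6.23 (3.70 to 11.55), though the gene lay under the minimum for a call. Over Cytotoxic gdT cells (6.98 and 7.16 FPM) it was called higher, at 1.22 (0.40 to 2.07) and 1.48 (0.84 to 2.15), and Innate-like T#1 cells had more still, 25 and 30.3 FPM. Of the other members, the adaptor gene Sh2d1a had 12.5 and 18.5 FPM and the kinase gene Syk 1.86 and 10.1, each the lowest of all labels in the cecum and rank 14 and 6 of 17 in the tumor, and the adaptor gene Hcst had 100.2 and 98.0 FPM, rank 8 in both.

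Among natural killer receptor genes, Klrk1, Klrd1, Klre1, Cd160, Cd244a and Cd7 ranked first of all labels in both libraries, 6 of the 14 genes of the list. Of 13379 genes with at least 500 fragments, a minimum the list was not held to, 3.09% ranked first in both. The innate-like labels came close at several of these 6 genes, since Klrk1 had 40.5 and 38.8 FPM in Innate-like T#2 cells. In Innate-like T#1 cells Cd7 had 79.6 and 86.0 FPM (83.1 and 95.1 in CD8aa) and Cd244a 67.4 and 73.1 FPM (80.8 and 77.7 in CD8aa). Others of the list did not lead: Klrc1 ranked 7th and 8th, Klrg1 4th and 3rd and Klrb1c 10th and 4th, and Ncr1 was at 0 and 0.289 FPM. Against Rorgt gdT cells 8 of 11 tested were higher (all genes 5.41%) and 1, Klrc1, lower (5.66%), the latter with its sign turned in the tumor within 1 kb of the gene ends (0.10). Of 11 tested, 4 were higher than in Cytotoxic CD8 cells and 0 lower (all genes 1.77% higher and 2.09% lower), with a median of 0.45 and 0.44. Klrk1, the activating receptor NKG2D, had 43.2 and 39.0 FPM against 18.9 and 19.4 (1.19, from 0.72 to 1.67, and 1.0, from 0.58 to 1.44). Klrd1, or CD94, the partner chain of the NKG2 receptors, had 70.1 and 72.5 against 34.5 and 33.6 (1.02 and 1.11), and Klre1 76.6 and 80.3 against 38.7 and 36.0 (0.99 and 1.16). Klra7, a Ly49 receptor, had 18.6 and 19.1 against 7.08 and 4.53 (1.39 and 2.07). Genes of the Klr and Klra families lie side by side and some are close copies, so their windows can share fragments and single members are uncertain. Klre1 was also the only gene of the list called against Cytotoxic gdT cells (1 of 10, all genes 0.492% higher), at 40.9 and 44.1 FPM there (0.91, from 0.56 to 1.25, and 0.86, from 0.59 to 1.14). Cd160 did not pass the fold against Cytotoxic CD8 cells, at 68.7 and 73.7 against 67.6 and 62.1 FPM.

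Of 11 granule genes tested 1 was higher than in Cytotoxic CD8 cells and 1 lower (all genes 1.77% higher and 2.09% lower), with a median of -0.01 and 0.22. Gzma (chr13:113093824-113100981), the gene for granzyme A, was higher, at 90.5 and 94.2 FPM against 56.4 and 62.1 (0.68, from 0.39 to 0.98, and 0.60, from 0.36 to 0.85), and Cytotoxic gdT cells had 106 and 109. Gzmm was lower, at 15.8 and 11.6 against 31.9 and 30.9 (-1.01 and -1.42). Perforin and granzyme B differed less than the fold: Prf1 had 48.3 and 58.4 FPM against 55.2 and 61.0, and Gzmb 52.4 and 52.0 against 51.1 and 37.8. Among 9 cytokine genes tested, Csf2, the gene for GM-CSF, was the 1 called (all genes 1.77% higher), at 33.4 and 31.8 FPM against 13 and 16 (1.36, from 0.80 to 1.94, and 0.99, from 0.53 to 1.47). Ifng was alike in level, 43.6 and 41.9 against 45.5 and 48.7, and Ccl4, a chemokine for T cells and macrophages, was highest of all labels at 78.9 and 89.3, with Cytotoxic CD8 cells next in the cecum at 76.1 and Cytotoxic gdT cells in the tumor at 83.2. Against Cytotoxic gdT cells 0 genes of either list were called, in a comparison where 0.492% of all genes were higher and 0.686% lower. Against Rorgt gdT cells 6 of 11 granule genes and 6 of 9 cytokine genes were higher in CD8aa (all genes 5.41%) and 1 cytokine gene, Tnf, lower (5.66%), with Gzma at 3.70 and 9.41 FPM in the Rorgt gdT cells. The windows of Ccl3 and Ccl4, both among the higher genes, overlap and can count the same fragments. Gzma reached the minimum mostly through CD8aa cells, with 195 against 8 fragments in the cecum and 326 against 20 in the tumor.

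Of 14 type 1 and innate-like transcription factors, 2 were called higher than in Cytotoxic CD8 cells (all genes 1.77%). Zbtb16 (chr9:48651797-48836225) encodes PLZF, a factor of innate-like T cells, and had 228 and 219 FPM in CD8aa against 56.1 and 60.7 (2.03, from 1.78 to 2.27, and 1.85, from 1.63 to 2.07). Ikzf2, which encodes Helios and is known from natural CD8aa and regulatory T cells, had 347 and 377 against 123 and 178 (1.49, from 1.32 to 1.67, and 1.08, from 0.95 to 1.22). Both were of similar level in Cytotoxic gdT cells, where Zbtb16 had 219 and 208 FPM (ratio 0.06, from -0.11 to 0.23, and 0.07, from -0.07 to 0.22) and Ikzf2 319 and 326. Rorgt gdT cells had more Zbtb16 signal, 522 and 473. A tile inside Zbtb16, chr9:48806501-48807000, was highest in CD8aa of all labels, with 20.9 and 20.2 FPM against 17.6 and 17.2 in Cytotoxic gdT and 5.31 and 3.2 in Cytotoxic CD8 cells. Its margin over Cytotoxic gdT cells was small, and whether it passes counting error was not tested. Eomes, the relative of T-bet, was at 22.7 and 28.9 FPM against 44.3 and 41.5 in Cytotoxic CD8 cells. Runx3, the factor that keeps Cd8 on and Cd4 off, was at 347 and 331 against 310 and 292.

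Some genes of naive and memory cells were less open in CD8aa. Against Cytotoxic CD8 cells 3 of 11 were lower and 0 higher (all genes 2.09% and 1.77%, median of the list -0.55 and -0.24): Ccr7, the receptor for lymph node entry, at 26.5 and 31.2 FPM against 57.8 and 55.4 (-1.13 and -0.83), Il7r, the receptor for IL-7, at 27.8 and 24.0 against 44.6 and 46.9 (-0.68 and -0.97), and Satb1, a chromatin organizer, at 52.4 and 72.0 against 126 and 124 (-1.26 and -0.79). Ccr7, Satb1, Lef1 and Foxp1 were lowest of all labels in both libraries, 4 of 11 genes of the list. Of all genes with at least 500 fragments, a minimum the list was not held to, 1.44% ranked last in both. Id3, at 123 and 107 FPM, ranked 4th and 5th, and Tcf7, at 174 and 167 FPM, 10th in both. Foxp1, a factor of quiescence, was also called lower against Cytotoxic gdT cells, at 282 and 325 FPM against 505 and 499 (-0.84 and -0.62, though 0.012 in the tumor within 1 kb of the gene ends). Of the cytokine receptor list 0 of 11 were called against Cytotoxic CD8 (all genes 1.77% and 2.09%) or Cytotoxic gdT cells (0.492% and 0.686%). Il2rb, the beta chain through which IL-2 and IL-15 signal, came close, with 317 and 290 FPM against 196 and 200 in Cytotoxic CD8 cells (0.70, from 0.54 to 0.85, and 0.54, from 0.40 to 0.68), the second highest level of the labels in both libraries. Others of the list stood lower: Il2ra, at 120 and 104 FPM, was the lowest of all labels in both libraries. Il2rg ranked 12th and 9th and Il15ra 11th and 9th.

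Homing and costimulation showed a few sharp differences. Itgax, the integrin CD11c, was the 1 of 18 homing genes higher than in Cytotoxic CD8 cells, at 51.5 and 44.5 FPM against 32.8 and 26.4 (0.65 and 0.76), and 3 were lower (all genes 1.77% higher and 2.09% lower). Of these, Ccr9, the receptor for the small intestine's chemokine, had 20.4 and 18.8 FPM against 35.4 and 34.4 in Cytotoxic CD8 cells, where the sign turned in the cecum within 1 kb of the gene ends (0.013), and 65.5 and 64.2 in Cytotoxic gdT cells. The log2 ratio to the latter was -1.68 (-2.19 to -1.20) and -1.77 (-2.19 to -1.38). Ccr2 was lower against both, with 14.9 and 15.9 FPM against 34.2 and 28.5 in Cytotoxic CD8 cells, and Ccr6, at 3.25 and 6.94 against 12.7 and 18.6, was the last of them. Itgae, whose integrin CD103 holds cells to the epithelium, was alike, at 189 and 200 against 189 and 181. Of 16 costimulatory and inhibitory receptors 5 were lower and 0 higher than in Cytotoxic CD8 cells (all genes 2.09% and 1.77%), with a median of -0.21 and -0.35. Cd28, the main costimulatory receptor, had 18.6 and 19.9 FPM against 93.0 and 90.0 (-2.32, from -2.84 to -1.85, and -2.17, from -2.57 to -1.80), and its neighbours Icos and Ctla4 33.9 and 29.2 against 98.6 and 88.2 and 35.7 and 51.4 against 80.9 and 94.5. The 3 genes lie next to each other on chromosome 1. The inhibitory receptor genes Pdcd1 (61.3 and 76.3 against 92.7 and 133) and Havcr2 (48.7 and 45.1 against 85.9 and 95.1) completed the 5. Against Cytotoxic gdT cells 2 of 16 were higher and 1 lower (all genes 0.492% and 0.686%). The order at Cd28 turned there, since Cytotoxic gdT cells had 11 and 12.9 FPM and CD8aa was higher (0.76 and 0.63). Cd2, an adhesion receptor of T cells, was higher too, at 46.4 and 52.9 against 20.3 and 18.6 (1.19, from 0.72 to 1.68, and 1.51, from 1.12 to 1.91), and Havcr2 was again lower (-0.94 and -1.11). Against Rorgt gdT cells Cd27 and Cd96 were higher, 2 of 16 (all genes 5.41%). Lower were Cd28, Icos, Ctla4 and Pdcd1, 4 of 16 (5.66%), Ctla4 with its sign turned in the tumor within 1 kb of the gene ends (0.19).

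Of 11 gamma-delta and type 17 genes tested against Rorgt gdT cells all 11 were lower in CD8aa (5.66% of all genes were), with a median of -3.54 and -2.92, and Il1r1, the receptor for IL-1, had 2.32 and 6.07 FPM against 279 and 275. Genes of this list could reach the fragment minimum through Rorgt gdT cells alone, as Il1r1 did with 5 CD8aa fragments against 604 in the cecum. The labels were also made from RNA of the same nuclei, so this count is not read as a result about CD8aa. Lower did not always mean closed, as Rora kept 432 and 435 FPM in CD8aa and Cd163l1 51.5 and 43.1. Against Cytotoxic CD8 cells 2 of 6 were lower (2.09% of all genes were), among them the factor gene Maf (6.5 and 17.1 against 39.5 and 39.7), and against Cytotoxic gdT cells 2 of 7 (0.686% of all genes), Trdc and Il23r (29.2 and 23.1 against 46.5 and 42.9). The helper genes held 1 higher and 1 lower of 6 against Cytotoxic CD8 cells (all genes 1.77% and 2.09%), Il4 (14.4 and 17.3 against 5.61 and 9.85) and the IL-33 receptor gene Il1rl1 (11.6 and 15.6 against 28.9 and 38.6). Of the 8 TGF-beta signalling genes 0 were called against Cytotoxic CD8 or Cytotoxic gdT cells and 2 against Rorgt gdT cells, 1 in each direction, numbers from which nothing can be read at the shares called over all genes (1.77% and 2.09%, 0.492% and 0.686%, 5.41% and 5.66%). Among the other-cell markers 0 of 5 B cell, 0 of 3 myeloid and 0 of 5 epithelial genes tested were called against Cytotoxic CD8 or Cytotoxic gdT cells (1.77% and 2.09%, and 0.492% and 0.686%, of all genes were higher and lower). Against Rorgt gdT cells Ebf1 was lower, 1 of 4 B cell genes, and Cdh1 higher, 1 of 4 epithelial genes (all genes 5.66% lower and 5.41% higher). The sign of the Ebf1 ratio turned in the tumor as a mean over cells (0.26).

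Trdc, the constant region of the delta chain, bears on the receptor of these cells, because it lies inside the Tra locus and is deleted from a chromosome when the alpha chain is joined. CD8aa cells had 15.3 and 13.3 FPM over Trdc (chr14:54142851-54146108), against 77.8 and 68.0 in Cytotoxic gdT cells (-2.34, from -2.92 to -1.81, and -2.35, from -2.84 to -1.90), 48.6 and 40.5 in Rorgt gdT cells and 3.54 and 6.66 in Cytotoxic CD8 cells. CD8aa cells thus lay below both gamma-delta labels and above Cytotoxic CD8 cells, by 2.11 (1.12 to 3.2) and 1.0 (0.26 to 1.76) on the log2 scale, from counts under the minimum for a call. The stretch from Trdd1 to Trdc (chr14:54113468-54146108), counted without flanks, gave 16 and 39 fragments, 7.43 and 11.3 FPM, against 41.9 and 43.4 in Cytotoxic gdT and 3.25 and 5.06 in Cytotoxic CD8 cells. The level of CD8aa was shared with other labels, since CCR7+ CD8 cells had 10.2 and 10.1 FPM, Innate-like T#1 12.9 and 11.7 and Innate-like T#2 cells 19.8 and 11.3. The difference from Cytotoxic CD8 cells was clear of 0 only in the tumor (1.19, from -0.00 to 2.45, and 1.16, from 0.33 to 2.03). Of single nuclei thinned to 1000 fragments, 0.93% (exact interval 0.19 to 2.70) of 322 and 1.17% (0.38 to 2.71) of 427 had a fragment at Trdc, against 6.28% and 6.08% in Cytotoxic gdT, 5.98% and 2.02% in Rorgt gdT and 0.23% and 0.24% in Cytotoxic CD8 cells. Without thinning the share in CD8aa was 4.42% and 6.13%, since it grows with depth. The 85 and 46 CD8aa nuclei with fewer fragments were left out of the thinned shares. The same measure gave 5.59% and 5.39% for Cd8a (8.67% and 9.65% in Cytotoxic CD8), 2.17% and 2.11% for Cd8b1 (7.26% and 6.12%) and 4.66% and 3.04% for Fcer1g (1.87% and 1.18%). At Cd8a Cytotoxic gdT cells had 6.28% (4.21 to 8.95) and 6.46% (4.52 to 8.92), intervals that hold the CD8aa shares. By this measure Fcer1g was not highest in CD8aa in the tumor, where Cytotoxic gdT cells had 3.23% and Innate-like T#1 cells 3.33%, against 2.24% and 3.30% in the cecum. The shares in CD8aa were, without thinning, 19.7% and 29.4% at Cd8a, 6.14% and 9.51% at Cd8b1, and 16% and 21.4% at Fcer1g.

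The joining segments of the Tra locus showed a second difference from Cytotoxic CD8 cells. Alpha chain joining removes the DNA upstream of the segment used, so the segments nearest to Trdc, those with the highest numbers, are the ones lost first. CD8aa cells had 47.8 and 58.4 FPM over Traj61 to Traj31 (chr14:54155005-54187951), the third and second highest level of the labels, against 24.2 and 21.6 in Cytotoxic CD8 cells (0.98, from 0.55 to 1.42, and 1.44, from 1.06 to 1.83). Cytotoxic gdT cells had 97.4 and 106 and Rorgt gdT cells 33.3 and 48.9. Cytotoxic CD8 cells were themselves low, 14th of 16 labels in the cecum and last of 17 in the tumor. Other labels came near CD8aa in the cecum, with 49.5 FPM in Innate-like T#1, 44.4 in CCR7+ CD4 and 40.4 in Mucosal Th1 cells. In the tumor Tfh-like cells had 51.7 (ratio 0.17, from -0.39 to 0.79), while Innate-like T#1 cells lay below CD8aa at 44.4 (0.39, from 0.15 to 0.63). Over Traj30 to Traj2 (chr14:54189866-54218842) CD8aa and Cytotoxic CD8 cells did not differ beyond counting error, at 78.0 and 80.1 against 77.3 and 76.7 FPM. Cytotoxic gdT cells had 58.2 and 69.2 there, below CD8aa in the cecum (0.42, from 0.11 to 0.74), and Rorgt gdT cells 23.6 and 31.5. At Trac (chr14:54220521-54224198), counted without flanks like the stretches before it, CD8aa had 82.6 and 92.2 FPM, Cytotoxic CD8 82.3 and 79.9 and Cytotoxic gdT cells 83.8 and 81.6. The excess over Cytotoxic CD8 cells thus lay in the upstream joining segments and not in the downstream ones. At the constant regions of the other chains, CD8aa had the highest level of all labels at Trgc1 (24.6 and 22.0 FPM, Th17 next in the cecum at 24.1, Cytotoxic gdT 20.6 and 21.5, Cytotoxic CD8 12.1 and 11.7) and 94.7 and 94.8 FPM at Trgc4, where Cytotoxic gdT cells had 92.1 and 94.9 and Cytotoxic CD8 cells 71.1 and 61.8. At Trbc1, a constant region of the beta chain, CD8aa had the lowest level of all labels (16.7 and 22.3, Cytotoxic CD8 25.4 and 24.2), and at Trbc2 the level next to the lowest (32 and 32.1 FPM). The Trgc genes are close copies of each other and single members are uncertain. Margins at Trgc1 were small in both libraries, as was that from Cytotoxic CD8 cells at Trbc1 in the tumor. Whether the ranks at these constant regions pass counting error was not tested.

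**Figure D4:**
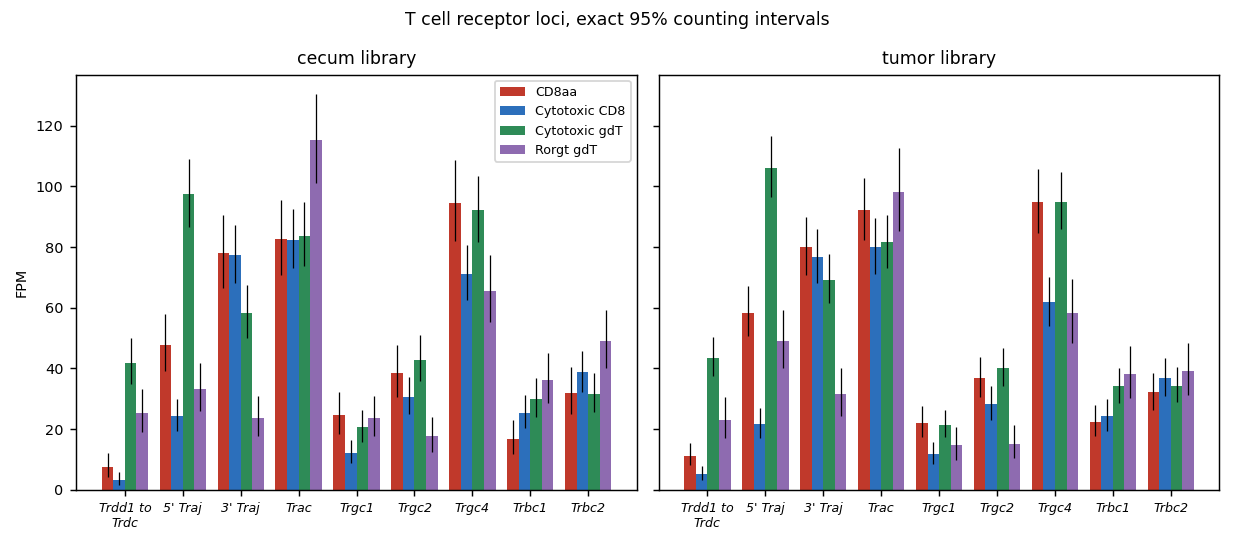
Accessibility in FPM (bars from 0, exact 95% counting intervals as lines) over parts of the T cell receptor loci in CD8aa, Cytotoxic CD8, Cytotoxic gdT and Rorgt gdT cells, with a panel for each library; 5′ Traj stands for Traj61 to Traj31 and 3′ Traj for Traj30 to Traj2. CD8aa lies between Cytotoxic CD8 and Cytotoxic gdT cells at the delta segments (7.43 and 11.3 FPM) and at 5′ Traj (47.8 and 58.4).

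Among the genes over the fragment minimum, those furthest above Cytotoxic CD8 cells in both libraries by the ratio with 1 FPM added to both levels (a pseudocount) were Olfr1258, Thbd, Klrb1, Atp1b1, Clnk and Spry2. Olfr1258 (chr2:89921944-89930746), annotated as an olfactory receptor gene of a family with close copies, had 43.6 and 41.0 FPM in CD8aa against 2.07 and 3.99 (4.40, from 3.30 to 5.75, and 3.36, from 2.59 to 4.24). Its signal sat in a tile inside the annotated span, chr2:89930001-89930500, with 19 and 20.5 FPM in CD8aa against 0.59 and 1.07, and in another 0.69 kb outside it, with 15.8 and 12.7 against 1.18 and 2.13. The first was the highest of all labels in both libraries, with 15.3 and 14.8 FPM in Cytotoxic gdT and 8.31 and 8.0 in Innate-like T#1 cells. Thbd (chr2:148404471-148408188), which encodes thrombomodulin, had 31.1 and 37.3 FPM against 3.84 and 5.86 (3.02 and 2.67). Klrb1 (chr6:128706093-128724330), a natural killer lectin receptor gene, had 31.1 and 34.7 against 3.84 and 5.59 (3.02 and 2.63). Atp1b1 (chr1:164437099-164458355), a subunit gene of the sodium-potassium pump, had 39.9 and 49.998 against 6.49 and 8.79, Clnk (chr5:38705588-38876858), an adaptor of immunoreceptor signalling, 91.9 and 101 against 9.74 and 19.2, and Spry2 (chr14:105891947-105896819), an inhibitor of receptor tyrosine kinase signals, 102 and 118 against 15.1 and 25. Thbd (0.71 and 0.72) and Klrb1 (0.66 and 0.79) were also called higher against Cytotoxic gdT cells. Since the minimum was set on the sum of both labels, extreme genes could reach it mostly through 1 label. Olfr1258 did so with 94 CD8aa fragments against 7 in the cecum. This limit holds for each ranking of genes by ratio to another label, so the rankings are a description only.

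By the same order the genes furthest below Cytotoxic CD8 cells began with Cd6, given above. Slamf1 (chr1:171767131-171801184), a homotypic receptor of lymphocytes, had 6.03 and 8.67 FPM in CD8aa against 68.5 and 77.2 (-3.50 and -3.16), Ms4a6c (chr19:11469353-11487182) 6.96 and 7.23 against 46.3 and 48.5 (-2.73 and -2.75), and Tmie (chr9:110865687-110880073) 3.25 and 6.65 against 30.4 and 42.3 (-3.23 and -2.67). Cyp26b1 (chr6:84571414-84593908), an enzyme that breaks down retinoic acid, was nearly closed in CD8aa (0.93 and 2.02 against 14.2 and 15.7). It reached the minimum mostly through Cytotoxic CD8 cells, with 2 CD8aa fragments against 48 in the cecum. Cd8b1, also given above, was among the 6 lowest of the genes over the minimum.

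Over Cytotoxic gdT cells Atp1b1 led again, with log2 ratios of 2.0 (1.39 to 2.65) and 2.29 (1.80 to 2.80). Gas7 (chr11:67453257-67688992), known from neurite outgrowth, had 174 and 211 FPM in CD8aa against 53.5 and 59.2 (1.70 and 1.83). Gcnt1, a glycosyltransferase that builds core 2 glycans, had 23.2 and 37.9 against 7.31 and 10.3, the orphan receptor gene Gpr35 26.5 and 28.0 against 7.65 and 10.3, Rnf32 31.1 and 35.0 against 9.31 and 13.1 and Olfm1 16.2 and 24.6 against 5.98 and 5.25. Gcnt1 and Gpr35 changed sign in 1 library when only fragments within 1 kb of a gene end were counted (Gcnt1 -0.31 in the tumor, Gpr35 -1.0 in the cecum). Lower than in Cytotoxic gdT cells were Scin (chr12:40059769-40134228), an actin-severing protein (23.7 and 15 against 84.8 and 76.3), the peroxisomal transporter gene Abcd2 (6.96 and 6.94 against 24.3 and 21.7), Tshz3 (4.18 and 5.78 against 17.3 and 17.9), besides Cd6, Trdc and Ccr9. Against Rorgt gdT cells Gzma, Klrb1 and Car2, a carbonic anhydrase gene (59.4 and 63.3 against 3.70 and 5.17), stood highest and Il1r1, Plcb4 (8.35 and 6.07 against 285 and 287) and Stac (0.93 and 1.16 against 70.3 and 77.2) lowest.

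Distal tiles, 500 bp wide with the middle at least 5 kb outside every annotated gene, were called by the same fold, and of 4980 tested 444 were higher in CD8aa than in Cytotoxic CD8 cells (8.92%) and 363 lower (7.29%). Against Cytotoxic gdT cells 152 (3.18%) and 159 (3.33%) of 4773 were called, and against Rorgt gdT cells 742 (19%) and 736 (18.9%) of 3902. The counts moved with the settings. At a tile minimum of 40 they were 186 and 130 of 2276, 47 and 49 of 2224, and 299 and 275 of 1717 in these 3 comparisons. With a pseudocount of 5 FPM they were 241 and 144 against Cytotoxic CD8 and 50 and 47 against Cytotoxic gdT cells. The 3 labels thus had the order seen for genes, and the shares of tiles and genes are not compared, since their widths and minimums differ. In opposite directions 39, 40 and 47 tiles passed the fold. Tiles are placed here by the nearest protein-coding gene, which need not be the gene they act on. The tile with the clearest excess over Cytotoxic CD8 cells, chr14:105886501-105887000, lies 5.2 kb from Spry2 and had 21.8 and 28.6 FPM against 0.89 and 1.07 (4.62, from 2.99 to 6.95, and 4.75, from 3.35 to 6.65). Another tile of chromosome 14, chr14:106027501-106028000, had 13.5 and 15 against 0.89 and 1.33, its nearest protein-coding gene being Trim52 at 78.4 kb. The others were chr2:172239501-172240000, 8.74 kb from Mc3r, with 12.1 FPM in both libraries against 0 and 0.80, chr13:113382001-113382500, 11.7 kb from Cspg4b, with 21.8 and 26.6 against 2.66 and 1.33, and chr5:38932501-38933000, 55.9 kb from Clnk, with 10.2 and 12.1 against 0.89 and 1.07. The tile near Spry2 overlaps the end of the window counted for that gene, so both values can count the same fragments. Extreme tiles of each comparison could also reach the minimum through 1 label alone. The tile near Mc3r did so with 26 CD8aa fragments against 0 in the cecum. Among the lower tiles, chr11:90418001-90418500, 27.3 kb from Hlf, had 3.71 and 2.89 FPM against 30.1 and 30.9 in Cytotoxic CD8 cells (-3.02 and -3.42), and it was among the lowest against Cytotoxic gdT cells as well. The tile chr13:35131501-35132000 had 0 and 0.29 FPM against 8.56 and 9.32, and the other 3 of the lowest lay nearest to Tm2d3, Gm52008 and Galm.

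Against Cytotoxic gdT cells the distal tile with the highest pseudocounted ratio was chr3:101948501-101949000, 20.5 kb from Slc22a15, with 15.8 and 25.7 FPM against 4.32 and 6.20. The lowest included 2 that lie by genes already called. The tile chr12:40154001-40154500, 20.02 kb from Scin, had 2.32 and 0.58 FPM against 18.3 and 19.8. The tile chr9:123749501-123750000, 17.5 kb from Ccr9, had 1.39 and 1.45 against 12.6 and 13.8 (-3.18, from -5.52 to -1.53, and -3.26, from -4.93 to -1.95), in the direction of Ccr9 itself. Against Rorgt gdT cells, the distal tile chr11:83628501-83629000, 19.1 kb from the chemokine gene Ccl3, had 17.2 and 17.6 FPM against 0.92 and 0.47, and chr5:74184501-74185000, near Rasl11b, 24.6 and 16.5 against 0.46 and 0. In the other direction chr13:34691001-34691500 had 0 FPM in both libraries of CD8aa against 38.9 and 27.3, chr6:108686001-108686500, 19.3 kb from Bhlhe40, 0 against 23.6 and 30.6, and chr8:115411501-115412000, near Wwox, 0 against 22.2 and 22.6.

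Set against all labels with at least 50 nuclei, CD8aa cells were the highest of all in both libraries at 440 of 13376 genes with at least 20 CD8aa fragments in each library and at 234 of 4045 distal tiles with at least 10. Since that minimum was set on the fragments of CD8aa itself, the shares are not read as a result. The 8 genes with the largest lead, ranked by the smaller ratio of the 2 libraries, were Apba2, Rnf165, Aqp12, Loxhd1, Klrb1, Klre1, Adgrf3 and Olfr1260. The interval of the lead over the next label included 0 in 1 library at 4 of them, in the tumor at Apba2 (-0.40 to 2.55) and Olfr1260 (-0.09 to 1.13) and in the cecum at Aqp12 (-0.05 to 1.73) and Adgrf3 (-0.59 to 2.15). Loxhd1 had 30.6 and 24.6 FPM, where the next label had 7.38 and 15.2. Rnf165 had 33.0 and 36.7 with the next at 12.6 and 20.5, and Apba2, an adaptor of the amyloid precursor protein, 22.7 and 21.1 with the next at 10.4 and 11.4. Klrb1 led Cytotoxic gdT cells, which came second with 19.6 and 20.04, by 0.66 (0.14 to 1.19) and 0.79 (0.38 to 1.21). Olfr1260, annotated as an olfactory receptor from the same cluster as Olfr1258, had 19.96 and 15.03 against 7.65 and 10.5. The distal tile with the largest lead, chr4:46422501-46423000, 18.6 kb from Hemgn, had 15.3 and 10.7 FPM with 4.65 and 2.86 in Cytotoxic gdT cells (1.72, from 0.78 to 2.73, and 1.90, from 0.93 to 2.98). The others were 2 adjoining tiles 23.8 and 23.3 kb from Rasgrf1 (chr9:89885501-89886000 at 4.64 and 8.09 FPM and chr9:89886001-89886500 at 6.96 and 8.09), a tile 58.4 kb from Spry2 (chr14:105955001-105955500, 6.96 and 6.65), chr5:112640501-112641000, 48.1 kb from Myo18b, at 18.1 and 19.7, and tiles with Fam174a, Slc17a6 and Cited2 as the nearest protein-coding gene. The lead over the next label had an interval that included 0 in 1 library at each Rasgrf1 tile (-0.38 to 2.96 in the cecum at the first, -0.07 to 1.52 in the tumor at the other) and at the Myo18b tile (-0.02 to 1.39 in the cecum), and in both libraries at the Cited2 tile (-0.65 to 3.02 and -0.47 to 2.13).

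Between tissues few genes of CD8aa cells were called. Of 13563 genes 181 (1.33%) were called higher in the tumor and 57 (0.42%) lower, by a ratio past 1.5-fold with an interval clear of no difference, and the median ratio of all genes was -0.006 on the log2 scale. These counts depend on the settings, with 24 and 5 genes at a minimum of 200 fragments, 33 lower with a pseudocount of 5 FPM and 103 lower as a mean over cells. By the same rule Cytotoxic CD8 cells had 231 and 127 of 14335 genes, Cytotoxic gdT cells 155 and 87 of 14258 and Rorgt gdT cells 437 and 174 of 13329. The interval alone, without the fold, was clear of 0 at 10.5% of genes in CD8aa. At the markers the tissues did not differ beyond counting error: the log2 ratio of tumor over cecum was 0.16 (-0.17 to 0.51) at Cd8a, -0.04 (-0.25 to 0.16) at Tbx21 and 0.13 (-0.27 to 0.54) at Fcer1g. Of the 181 genes on the lists, not all of which reached the minimum, 2 were called, both higher in the tumor. They were Gzmc, with 18 cecum and 51 tumor fragments (0.82, from 0.02 to 1.68), and Maf, with 14 and 59 (1.39, from 0.53 to 2.35). At the share of all genes called higher (1.33%) nothing can be read from so few calls. In the tumor Maf, at 17.1 FPM, was still the lowest of the 17 labels. The gene with the clearest gain was Csf1, the gene for macrophage colony-stimulating factor, with 10 and 66 fragments (4.64 and 19.1 FPM). Its log2 ratio was 2.04 (1.07 to 3.16), against 0.60 in Cytotoxic CD8 and 0.24 in Cytotoxic gdT cells. Meox1 (14 and 66 fragments, 1.55, from 0.71 to 2.50), Lhx5 (13 and 60, 1.52), Zfp608 (14 and 62, 1.46) and Gprin3 (8 and 42, 1.71, from 0.60 to 3.01) followed. Even in the tumor CD8aa ranked 14th of 17 labels at Csf1, 12th at Meox1, 16th at Gprin3 and last at Zfp608, but 2nd at Lhx5. PD1+ CD4 cells were highest there at Csf1 (55.3 FPM) and Meox1 (87.6 FPM). Lower in the tumor were Tmem117 (55 and 29 fragments, 25.5 and 8.38 FPM, -1.61, from -2.31 to -0.93), Zfp551 (34 and 22, -1.31), Nes, the gene for nestin (36 and 24, -1.27), Nipa1 (33 and 22, -1.27) and Dnah10 (65 and 54, -0.95). These differences rest on few fragments each.

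**Figure D5:**
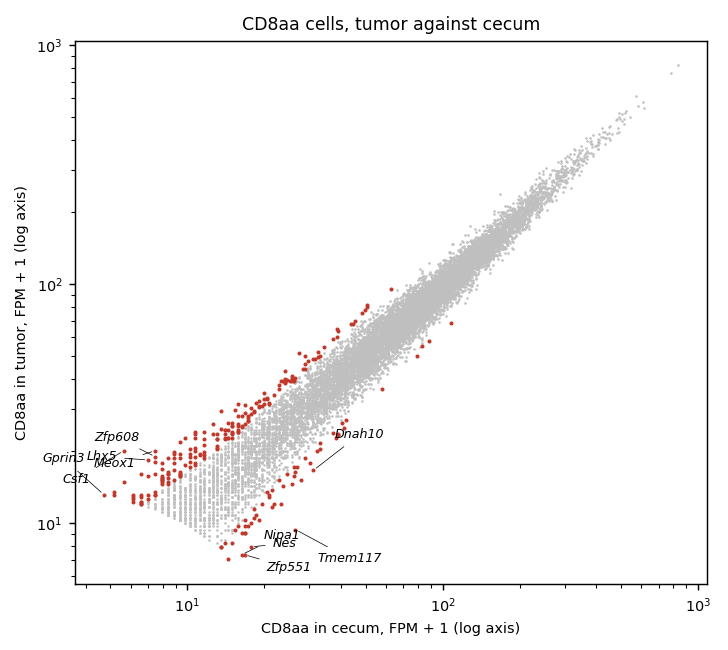
Accessibility of each gene in CD8aa cells, FPM + 1 in the cecum (horizontal) against FPM + 1 in the tumor (vertical), both log axes, with called genes in red and the 5 highest and 5 lowest named. Most genes lie along the diagonal, with Csf1 (4.64 and 19.1 FPM) above it and Tmem117 (25.5 and 8.38 FPM) below it.

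Of 5364 distal tiles 177 (3.3%) were higher in CD8aa cells of the tumor and 154 (2.87%) lower. The interval alone, without the fold, was clear of 0 at 6.79% of these tiles. At a tile minimum of 40 fragments 67 were higher and 89 lower of 2503, and with a fold of 2 there were 66 lower. The tiles named next are the extremes of all those tested. The clearest gain was at chr11:52300001-52300500, 16.9 kb from Tcf7, a factor gene of memory T cells, with 1 and 21 fragments (3.71, from 1.07 to 9.08). Next by the interval bound nearest to no difference came chr4:137068501-137069000 near Zbtb40, with 3 and 31 fragments (2.69, from 1.01 to 5.04). It was followed by chr11:71728001-71728500 near Wscd1, with 2 and 25 (2.96, from 0.96 to 6.08). Lower in the tumor were chr5:146904501-146905000 near Gtf3a, with 17 and 5 fragments (-2.45), chr4:46422001-46422500 near Hemgn, with 15 and 5 (-2.27), and chr16:18687001-18687500 near Septin5, with 18 and 7 (-2.05). The tile near Hemgn adjoins the one at which CD8aa cells led all labels.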

How the data were processed

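The authors sorted T cells, made nuclei and ran the 10x multiome assay. Per the submitters' processing notes, reads were processed with Cell Ranger ARC 2.0.0 and mm10. The deposited fragment files list, for each barcode, the start and end of each fragment with its count of read pairs, and a deposited metadata table gives each nucleus a tissue and a cell type label, which the authors made by clustering the RNA after filters on RNA and on ATAC fragments and enrichment at gene starts. Each fragment was used once, whatever its count of read pairs. The 2 RNA libraries were not analysed here, and some items are not reported here.

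Fragments of labelled nuclei (66.2% and 64.2% of 66466111 and 96747563) were summed per label and library on chromosomes 1 to 19, X and Y and given as FPM. A fragment was counted once for a window if either cut lay in it. Gene spans came from RefSeq (21885 genes, GRCm38.p6). A gene entered a comparison with at least 50 fragments over both labels in each library, a distal tile with at least 20, and was called past 1.5-fold the same way in both with a pseudocount of 1 FPM. Ratios printed for a gene or tile come from counts without a pseudocount, with exact conditional 95% intervals, and a count of 0 stands at a floor of 3 counts. Named genes were Cd8a, Cd8b1, Cd4, Tbx21, Fcer1g, Trdc, called members of 17 gene lists (181 genes, all matched) and others where a list needs them, and the extreme genes and tiles of each comparison. The members, lists and comparisons were chosen with earlier results of these data known, and the locus tiles, the parts of the Tra locus, the receptor constant regions and the promoter counts after their values were seen. Doublets were not called. CD8aa nuclei above 3 times the median number of fragments (34 and 32) were left out in an alternative. The other alternatives changed the gene window, pseudocount, minimum, fold, scaling, cell minimum, thinning and distance. Scripts ran under scipy 1.17.1, matplotlib 3.10.9, pyarrow 21.0.0, pandas 2.3.3, numba 0.67.0 and numpy 2.4.6 in Python 3.11.15 and were tested on simulated data.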

Additional observations from a re-analysis of the deposited data

Results flagged for a closer look

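For 3 genes the difference between tumor and cecum in CD8aa cells and in Cytotoxic gdT cells had opposite signs with both counting intervals clear of 0. The log2 ratio of tumor over cecum was 1.55 at Meox1 in CD8aa and -0.74 (-1.42 to -0.06) in Cytotoxic gdT cells. At Tmem117 it was -1.61 in CD8aa and 1.37 (0.67 to 2.12) in Cytotoxic gdT cells, and at Nipa1 -1.27 (-2.12 to -0.45) and 0.71 (0.05 to 1.41). Cytotoxic CD8 cells moved the same way as CD8aa at Meox1 (0.89, from 0.29 to 1.52) and Tmem117 (-0.90, from -1.62 to -0.21), and had -0.37 (-0.97 to 0.21) at Nipa1. With 1 library for each tissue the difference between the labels was not tested, and the genes were found by looking over those named for the tissue comparison.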

How the results depend on the processing

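No paired analysis was possible because each tissue has 1 library and no result comes from a test. Of the values that answer a comparison 78 moved by less than 1.5 times or the counting interval and 79 by more, and of those of named genes and lists 2046 stayed, 272 moved and 10 changed sign. The cause was not tested beyond what each setting itself changes. Counts are given as higher and lower, or for 1 direction where the other stayed. With a fold of 2 there were 67 and 71 genes against Cytotoxic CD8, 19 and 18 against Cytotoxic gdT, 247 and 419 against Rorgt gdT and 31 and 5 for tumor over cecum, and 163 and 117, 35 and 35, 410 (higher) and 66 (lower) distal tiles. A gene minimum of 200 gave 110 and 92, 13 and 22, 333 and 260, and 24 and 5 genes, and no minimum gave 745 lower, 153 and 393, 1557 lower, and 297 and 175. Within 1 kb of the gene ends there were 77 lower, 27 and 21, 315 and 243, and 102 higher for the tumor, and 289 genes were highest in CD8aa of all labels. A mean over cells gave 118 and 144 genes against Cytotoxic gdT and 103 lower in the tumor. Without nuclei above 3 times the median 185 genes were lower than in Cytotoxic CD8, with 289 and 235 distal tiles, and 93 tiles were higher than in Cytotoxic gdT. A pseudocount of 5 FPM left 33 genes lower in the tumor, and 241 and 144 tiles against Cytotoxic CD8 and 50 and 47 against Cytotoxic gdT. A tile minimum of 40 gave 186 and 130, 47 and 49, 299 and 275, and 67 and 89 tiles. A distance of 10 kb gave 272 higher, 98 and 105, 472 higher, and 106 and 85. Likeness to Cytotoxic gdT was 0.690 and 0.689 over tiles, 0.979 and 0.984 without thinning and 0.887 in the cecum without nuclei above 3 times the median. Thinned to 500 fragments the shares of CD8aa nuclei were 1.85% and 2.44% at Cd8a, 0.264% at Cd8b1 in the cecum and 1.85% and 0.889% at Fcer1g, and without thinning 4.42% and 6.13% at Trdc, 19.7% and 29.4% at Cd8a, 6.14% and 9.51% at Cd8b1 and 16% and 21.4% at Fcer1g. Within 1 kb of the gene ends the log2 ratio changed sign at Lat (0.013, cecum) and Ccr9 (0.013, cecum) against Cytotoxic CD8, at Cd247 (0.14, cecum), Foxp1 (0.012, tumor), Gcnt1 (-0.31, tumor) and Gpr35 (-1.0, cecum) against Cytotoxic gdT, and at Klrc1 (0.10, tumor), Nfil3 (0.11, cecum) and Ctla4 (0.19, tumor) against Rorgt gdT, and Ebf1 did so as a mean over cells (0.26, tumor). Scaling by fragments near gene ends and keeping only nuclei with at least 1000 fragments moved none of the counts of calls by over 1.5 times. Genes and tiles with few fragments set the limit: intervals cover counting error and not the spread between mice.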
